A study of Arabidopsis thaliana with 2 samples.

Results

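The regions described here are stretches of 99 bases on the arms of the 5 Arabidopsis chromosomes in which no cytosine was called methylated in wild-type Columbia-0 (Col-0) and at least 1 was in miP1a-OX. The deposited table lists only bins with a p of at most 0.01 in Fisher's exact test between the libraries. Shares of listed bins are therefore shares of bins already called different. From these bins, spaced 100 bases apart, the regions were chosen by 3 conditions. Required were a position outside the pericentromeric blocks and at least 50 cytosine calls in each library. Methylated calls had to number 0 in Col-0 and 1 or more in miP1a-OX. Of the 30032 arm bins in the deposited table with at least 50 calls in each library, 3659 met the conditions, which is 12.2% of them, and the whole table holds 56731 bins. The measured calls thus chose the bins, so their levels are given as a description with no test.

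Genomic DNA of 12-d-old seedlings was treated with bisulfite and sequenced across the whole genome, each genotype giving 1 library. In miP1a-OX the 35S promoter, which is active in most plant tissues, drives FLAG-tagged miP1a in an otherwise wild-type background, and the number of independent lines behind the library is not given in the sources used here. According to the methods the plants grew on MS plates in long days, whereas the sample records name soil. No treatment was given to either genotype. As there is 1 library per genotype, no difference has a replicate check, and every comparison is between these libraries rather than between the genotypes. The study asked whether miP1a, a microProtein that delays flowering together with CONSTANS and the corepressor TOPLESS, acts through changes in chromatin.

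Plants methylate cytosines in 3 sequence contexts, CG, CHG and CHH, where H is any base but G. MET1 copies CG methylation after replication, CMT3 maintains CHG methylation, and CMT2 and the RNA-directed pathway, which starts with RNA polymerase IV, act on CHH sites. In the arms of Arabidopsis chromosomes, gene bodies can carry methylation at CG sites alone, whereas transposons and repeats are methylated in all contexts, and most promoters carry none. In bisulfite sequencing an unmethylated cytosine is read as T, and a methylated one, or one that the treatment missed, is read as C. A methylation level is the percentage of calls read as C. For a listed bin it pools every cytosine of both strands and all 3 contexts, so a bin with full CG methylation and nothing else has a level near its share of CG cytosines.

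The sequences of 8 of the 15 bins with the highest levels in miP1a-OX are shown first, because the number and placing of their CG sites bear on the values that follow. They were picked after the values were seen: 7 had at least 200 calls in both libraries, and the bin at MAD1 is added as one without a CG site. The plus strand of TAIR10.1 is given in each case with CG sites in capitals, and all 8 bins lie outside annotated genes.
PSD and AT1G72570, chr1:27330601-27330699: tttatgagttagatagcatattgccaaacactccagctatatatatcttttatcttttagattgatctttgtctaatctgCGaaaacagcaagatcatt
AT1G59660, chr1:21923301-21923399: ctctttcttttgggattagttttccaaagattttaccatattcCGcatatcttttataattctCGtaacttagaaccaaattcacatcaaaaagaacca
ILR3, chr5:22216701-22216799: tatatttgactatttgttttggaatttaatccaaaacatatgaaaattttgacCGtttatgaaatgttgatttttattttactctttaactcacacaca
ZIP5, downstream, chr1:1544401-1544499: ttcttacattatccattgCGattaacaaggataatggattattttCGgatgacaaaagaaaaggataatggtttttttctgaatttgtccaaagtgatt
MAD1, chr5:20281601-20281699: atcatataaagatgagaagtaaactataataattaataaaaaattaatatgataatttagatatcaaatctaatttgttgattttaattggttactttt
AT5G49680, chr5:20174701-20174799: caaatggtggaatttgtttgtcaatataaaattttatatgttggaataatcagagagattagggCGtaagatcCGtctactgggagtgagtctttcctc
EMB1895 and AAH, chr4:10860301-10860399: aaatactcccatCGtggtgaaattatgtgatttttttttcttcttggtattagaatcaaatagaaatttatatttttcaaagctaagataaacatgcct
GATL3 and RAV1, between the genes, chr1:4534601-4534699: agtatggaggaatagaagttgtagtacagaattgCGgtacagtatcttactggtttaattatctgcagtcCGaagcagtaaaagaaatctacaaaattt

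The bin with the highest level lies between PSD, which encodes the tRNA exporter PAUSED, and AT1G72570, which encodes an AP2-type DNA-binding protein. It is 570 bases upstream of the first and 682 bases upstream of the second. Methylated calls numbered 0 of 410 in Col-0 against 220 of 482 in miP1a-OX, a level of 45.6% (95% Clopper-Pearson interval 41.1% to 50.2%). Only 2 of its 30 cytosines are in CG sites, a share of 6.67%. The level was therefore well above what CG cytosines alone could give with even coverage. This bin also had the most methylated calls of all 3659, and it was the only one of them in the authors' list of 270 bins with a difference of at least 40 points. Of the listed arm bins with 50 calls or more, 18 (0.0599%) were higher in miP1a-OX by that much.

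The signal reached across the neighbouring bins. The next bin towards AT1G72570 had 0 of 614 methylated calls in Col-0 against 158 of 684 in miP1a-OX (23.1%). On the PSD side, the adjacent bin had 1 of 368 in Col-0 against 175 of 486 in miP1a-OX (36.0%), and the bin after it had 0 of 343 and 14 of 528 (2.65%). Over chr1:27330401-27330799 the summed level was 0.0576% in Col-0, with 1 of 1735 calls, and 26.0% in miP1a-OX, with 567 of 2180 calls (24.2% to 27.9%). Listed bins thus formed an unbroken stretch, and each of the 4 bins was higher in miP1a-OX. That the libraries differ in a listed bin is a condition of its listing.

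Upstream of AT1G59660, a nucleoporin autopeptidase gene, the chosen bin had 0 of 266 methylated calls in Col-0 against 129 of 353 in miP1a-OX (36.5%, 31.5% to 41.8%). The following bin had 4 of 501 in Col-0 against 167 of 473 in miP1a-OX (35.3%), and the preceding one 1 of 435 and 19 of 378 (5.03%). The high level therefore spanned at least 2 bins here, with few methylated calls in Col-0.

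The bin 135 bases upstream of ILR3, which encodes a bHLH transcription factor of iron homeostasis, had 0 of 417 methylated calls in Col-0 against 145 of 428 in miP1a-OX (33.9%, 29.4% to 38.6%). Its neighbour on the far side from the gene had 1 of 448 and 20 of 347 (5.76%). The level at ILR3 was largely that of 1 bin with a single CG site on each strand.

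Between EMB1895 and AAH, which encodes the allantoate amidohydrolase of ureide breakdown, the chosen bin had 0 of 428 methylated calls in Col-0 against 107 of 434 in miP1a-OX (24.7%, 20.7% to 29.0%). The adjacent bin towards AAH was not counted among the 3659, because 2 of its 497 Col-0 calls were methylated. It reached 44.3% in miP1a-OX, with 154 of 348 calls, so the condition of 0 calls left out the higher bin of the pair.

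Of the remaining high bins outside genes, the one 428 bases beyond the end of ZIP5, a zinc transporter gene, had 0 of 424 calls methylated in Col-0 against 125 of 431 in miP1a-OX (29.0%, 24.8% to 33.5%), and no listed bin lay beside it. The bin 1281 bases upstream of AT5G49680, a SABRE-like gene, had 0 of 417 and 167 of 637 (26.2%, 22.8% to 29.8%), and the next bin had 1 of 312 and 52 of 466 (11.2%). Between GATL3 and RAV1 the bin had 0 of 558 and 136 of 557 (24.4%, 20.9% to 28.2%), and it holds 14 CHG cytosines beside 4 in CG sites. These 3 bins and the 5 of the PSD, AT1G59660, ILR3 and AAH regions make up the 8 of the 15 highest that had at least 200 calls in each library.

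The other 7 of the 15 highest bins were measured with fewer calls in at least 1 library. The bin 412 bases upstream of MAD1, a spindle checkpoint gene, has no CG and no CHG cytosine, and its methylated calls were 0 of 73 in Col-0 against 21 of 74 in miP1a-OX (28.4%, 18.5% to 40.1%). The genome holds a close copy of it, and the 4 listed bins before it were already methylated in Col-0. Over all 5 bins the level was 16.5% in Col-0 and 39.9% in miP1a-OX. The bin thus lay at the edge of a stretch that was methylated in both libraries.

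Of these bins 2 were in coding sequence. In PDH-E1 BETA, a subunit gene of plastid pyruvate dehydrogenase, the methylated calls were 0 of 50 in Col-0 against 52 of 220 in miP1a-OX (23.6%, 18.2% to 29.8%), but calls covered 23 of its 48 cytosines in Col-0 and all 48 in miP1a-OX, and it has a close copy. In AT5G17580, a gene of the NPH3 family, the counts were 0 of 159 and 33 of 143 (23.1%, 16.4% to 30.9%). A bin at chr1:7024901-7024999 had 0 of 64 and 32 of 119 (26.9%), with calls on 22 of its 34 cytosines in each library. Its listed neighbour had 0 of 33 and 64 of 65 (98.5%). Bins at chr4:6427401-6427499 and chr4:721501-721599 had 0 of 69 and 20 of 70 (28.6%) and 0 of 184 and 35 of 130 (26.9%). A bin at chr3:9384101-9384199 with a close copy had 0 of 115 and 22 of 84 (26.2%). Listed bins 200 bases from those at chr4:721501-721599 and chr3:9384101-9384199 were already methylated in Col-0, at 14.5% and 26.4%. In each of the 7 the interval of the miP1a-OX level was wider than 10 points, so their order among the 15 is not resolved.

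**Figure D1:**
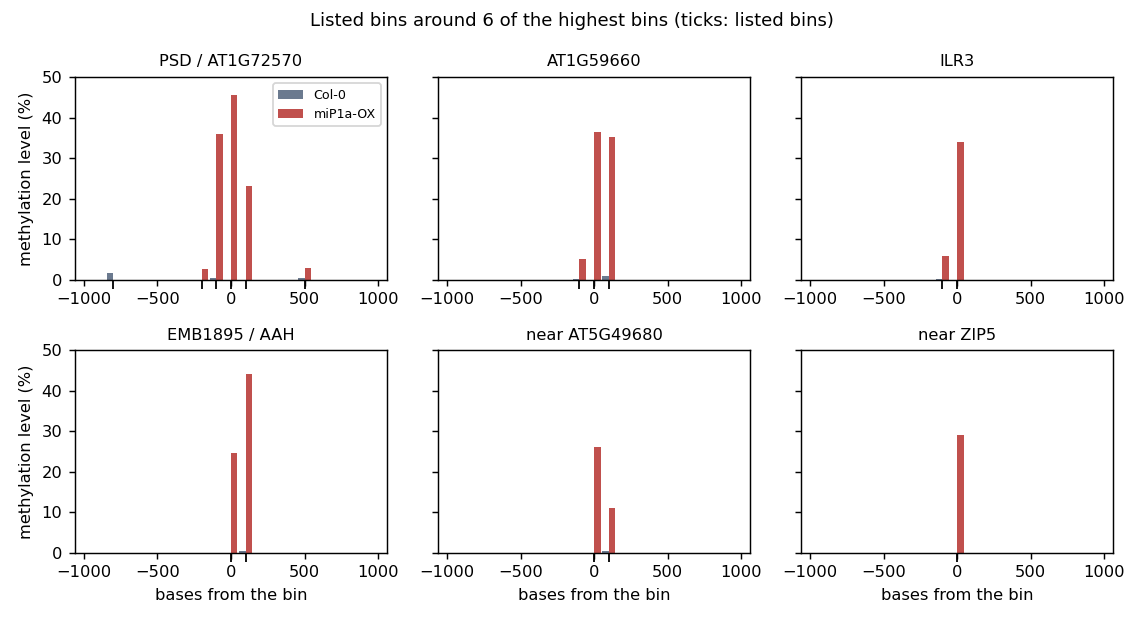
Methylation levels (%) of Col-0 (grey) and miP1a-OX (red) in the listed bins within 1000 bases of 6 of the highest bins, by distance in bases, with ticks under the axis for each listed bin and no replicates. The PSD region reached 45.6% in miP1a-OX and the ZIP5 bin stood alone at 29.0%, while Col-0 stayed at or near 0% beside each of the 6 bins.

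In most of the bins the level in miP1a-OX was far lower than in these 15. The median was 3.54%, the quartiles were 2.53% and 5.04%, and levels ran from 0.856% to 45.6%. Only 136 bins were above 10% and 18 above 20%. Summed over all 3659 bins, 53171 of 1340102 calls were methylated in miP1a-OX (3.97%) and 0 of 1281082 in Col-0. The median number of Col-0 calls was 342, at which a count of 0 allows a level of up to 0.877% (3 calls), and up to 6% in the bin with the fewest calls. Intervals and limits cover counting error only.

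At this depth a typical bin rested on few methylated calls, with a median of 12 and a range from 4 to 220. In the listed chloroplast bins, whose DNA is generally held to be unmethylated, the summed level was 0.290% in Col-0 and 0.177% in miP1a-OX. It was thus lower in miP1a-OX than in Col-0. The listed mitochondrial bins had higher summed levels, 2.69% (Col-0) and 1.69% (miP1a-OX). Of these, 2.69% is above the lower quartile of the bins described here, 2.53%, and 1.69% is below it. Organelle bins are also listed only with a p of at most 0.01, so neither organelle gives a neutral background rate. How much of a typical level is error was not tested. The calls of 1 DNA fragment are not independent, and 1 fragment can give as many methylated calls as its strand has cytosines in the bin. In 482 of the 3659 bins (13.2%, 12.1% to 14.3%) the methylated calls exceeded the cytosines of the richer strand, and in 54 they exceeded double that number, a measure that also allows for read pairs that overlap. In the other 3177 bins they did not, and the median ratio of methylated calls to these cytosines over all bins was 0.571. How many fragments carried the calls was not tested. After Benjamini-Hochberg adjustment of Fisher's exact test over all bins of the genome, 1424 of the 3659 bins had an adjusted p of at most 0.01, or 38.9%, and 36.7% of the listed arm bins did in either direction. The 4 counts that chose the bins also enter that test, so nothing is read from it.

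**Figure D2:**
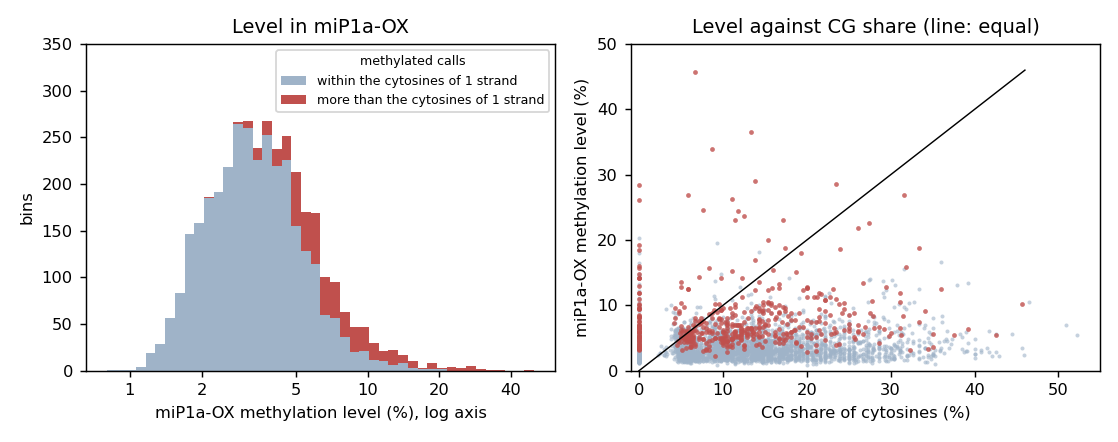
Left, number of bins by miP1a-OX level (%, log axis), with bins whose methylated calls exceed the cytosines of 1 strand in red (n = 482) and the others in blue (n = 3177). Right, miP1a-OX level (%) against the CG share of the cytosines (%) for the same bins, with a line where both are equal. The median level is 3.54%, and 644 bins lie above the line, 490 of them at a CG share of 0.

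By the same measure the remaining listed arm bins looked different. Of the 13876 other arm bins with a higher level in miP1a-OX, 83.1% had more methylated calls than the cytosines of 1 strand. Of the 5887 arm bins with the opposite pattern, calls in Col-0 but none in miP1a-OX, 9.72% did, counted in Col-0. The opposite pattern made up 19.6% of the listed arm bins, against 12.2% for the bins described here, although 58.4% of the listed arm bins were higher in miP1a-OX. Bins with 0 methylated calls in 1 library were thus more often at 0 in miP1a-OX than in Col-0. The level in the opposite bins was similar, with a median of 3.33% in Col-0 and 3.82% over their summed calls. No test applies, since the counts chose both groups. In the 13876 other arm bins the median number of methylated calls in Col-0 was 29, and in the bins described here it was 0 by choice. That choice thus enters the comparison with their 83.1% as well.

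The sequence context of the bins was read from the reference genome, which the choice of the bins did not use. The bins had a median of 38 cytosines on both strands, of which 4 were in CG, 5 in CHG and 27 in CHH sites, against 36, 4, 5 and 26 over all listed arm bins. In 490 bins (13.4%) there was no CG site, and in 152 (4.15%) neither a CG nor a CHG site, so their methylated calls were in other contexts by construction. Where no CG was present the median level was 3.06%, and where 9 or more CG cytosines were present it was 3.85%. The medians of the classes between were 3.56% to 3.65%. Summed over calls, the level was 3.39% without CG and 4.35% with 9 or more CG cytosines.

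The level in miP1a-OX exceeded the CG share in 644 bins, but the 490 of them without a CG site did so by construction. Of the 3169 bins with a CG site, 154 (4.86%, 4.14% to 5.67%) had a level over that share, against 55.9% of the 11456 other arm bins with a CG site and a higher level in miP1a-OX. All 13876 other arm bins higher in miP1a-OX had a median level of 8.54% in Col-0, where the bins described here were chosen to have 0. The choice of the bins thus enters this difference. Among the 15 highest bins, 12 of the 13 with a CG site were over their CG share. Of the 417 bins that had a CG site and more methylated calls than the cytosines of 1 strand, 57 were. The 15 highest bins were rich in A and T, with a median of 69.7% against 61.6% for all 3659 and 63.6% for all listed arm bins. The 13876 other arm bins higher in miP1a-OX had a median of 68.7%, so this was not particular to the 15. In the bins with more methylated calls than the cytosines of 1 strand it was 65.7%. A close copy elsewhere in the genome, at 90% identity over at least 80 bases, was found for 253 bins (6.91%), against 6.08% of the arm bins at 0 in miP1a-OX and 33.2% of the other arm bins higher in miP1a-OX.

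Most of the bins lay in genes. Of the 3659, 2917 (79.7%, 78.4% to 81.0%) overlapped an annotated gene. The share was 43.7% in the other arm bins higher in miP1a-OX and 88.2% in the arm bins with no methylated call in miP1a-OX. The comparison with all listed arm bins follows by class. Coding sequence was held by 2218 (60.6%), compared with 47.4% of all listed arm bins. UTRs accounted for 354 bins (9.67%) and introns for 251 (6.86%), against 5.25% and 5.72% of all listed arm bins. Pseudogenes held 1.01%, against 4.17%. A further 362 bins (9.89%) lay within 1000 bases upstream of a protein-coding gene and 380 (10.4%) elsewhere. Upstream and remaining regions made up 15.3% and 20.7% of all listed arm bins. Coding sequence, UTRs and introns were thus each a larger part of these bins than of all listed arm bins. Pseudogenes and upstream regions were a smaller one. The arm bins with no methylated call in miP1a-OX showed this too, with 88.2% in genes, 72.6% with coding sequence and 5.67% upstream, so it was not particular to the bins at 0 in Col-0.

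The median level was 3.85% in coding sequence, 3.50% in introns, 2.84% in UTRs and 2.87% upstream. Of the 136 bins above 10%, 72 held coding sequence, 6 lay in UTRs, 6 in introns and 2 in pseudogenes, 22 were upstream and 28 in the remaining regions. Of the 18 bins above 20%, 6 were upstream, 9 in the remaining regions, 2 in coding sequence and 1 in a pseudogene. More methylated calls than the cytosines of 1 strand were counted in 10.6% of the coding bins, 19.9% of the upstream bins and 23.2% of the remaining ones. A bin passes this number more readily with more calls and fewer cytosines. Bins past it had medians of 401 miP1a-OX calls and 19 cytosines on the richer strand, against 353 and 23 in the others. How far this enters the shares per class was not tested. Protein-coding genes held bins in every part when cut into 5 equal parts from their 5′ end, with 15.7% in part 1 and 24.1% in part 4, where all listed arm bins had 10.7% and 26.3%.

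**Figure D3:**
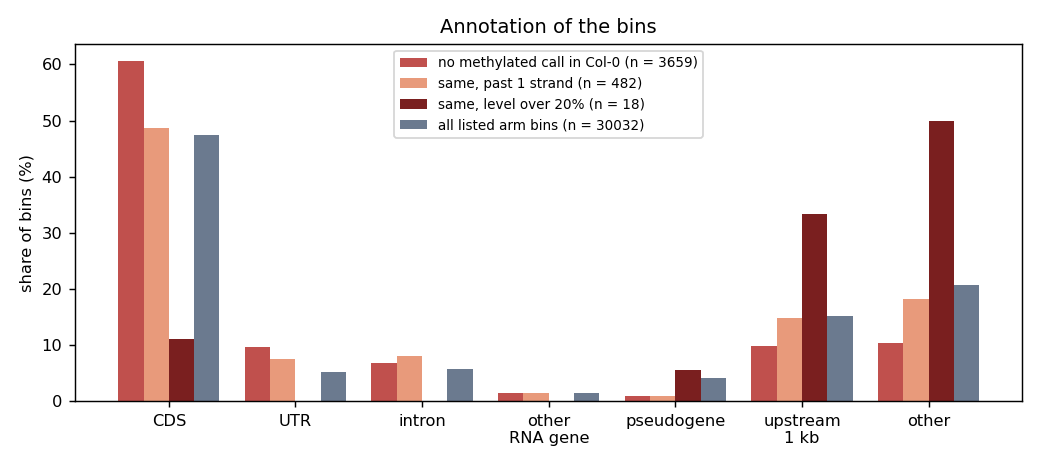
Share of bins (%) in each annotation class for all 3659 bins with no methylated call in Col-0, for the 482 with more methylated calls than the cytosines of 1 strand, for the 18 above 20%, and for all 30032 listed arm bins. Coding sequence holds 60.6% of the first group and 11.1% of the 18.

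The bins were spread over all chromosomes and mostly lay apart. Chromosomes 1 to 5 held 978, 577, 745, 590 and 769 of them, or 11.9%, 11.9%, 13.8%, 11.9% and 11.6% of their listed arm bins. There was no other bin of the group directly beside 3146 of them (86.0%), and 2649 (72.4%) had no listed bin on either side. The median distance to the next was 16050 bases, and 888 (24.3%) had another within 1000 bases. Beside the bins lay 560 listed bins that were not among them, of which 485 (86.6%) were higher in miP1a-OX, whereas 58.4% of all listed arm bins were. For the 18 bins above 20% there were 12 such neighbours, all 12 higher in miP1a-OX, with median levels of 0.361% in Col-0 and 24.3% in miP1a-OX. DNA fragments of the libraries are longer than a bin, so adjacent bins share fragments.

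Runs of 3 or more adjacent bins occurred 26 times, 3 of them with 4 bins, and 19 of the 26 lay entirely in protein-coding genes. Their summed levels in miP1a-OX were 2.03% to 11.9%, with a median of 4.06%. The highest was in NUC-L1, which encodes the nucleolin of rDNA transcription, where 3 coding bins at chr1:18101001-18101299 had 95 of 796 methylated calls in miP1a-OX and 0 of 590 in Col-0. The levels of the 3 bins were between 8.77% and 18.2%. In AT3G06590, a run at chr3:2054801-2055099 had 77 of 743 (10.4%) and 0 of 471. Neither run rested on bins with many calls per cytosine, since 0 of the 3 bins in NUC-L1 and 1 of the 3 in AT3G06590 had more methylated calls than the cytosines of 1 strand.

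The runs of 4 bins were at LHCA4, BGAL14 and AT1G05647. LHCA4 encodes a light-harvesting protein of photosystem I, and over chr3:17493601-17493999 its coding sequence had 88 of 1472 methylated calls in miP1a-OX (5.98%, bins from 2.75% to 8.10%) and 0 of 1091 in Col-0. BGAL14, a beta-galactosidase gene, had 57 of 1891 (3.01%) and 0 of 1207, and the RNA gene AT1G05647 had 44 of 1909 (2.30%) and 0 of 2024. In 19 of the 26 runs no bin had more methylated calls than the cytosines of 1 strand.

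Counted per gene, 3119 of the 24058 protein-coding genes on the arms (13.0%) held at least 1 of the bins in the gene or within 1000 bases upstream. A single bin was found at 2597 genes, 2 at 429, and 3 or more at 93. Genes with a bin had a median length of 2632 bases, against 2120 for all genes on the arms. For genes with at least 1 listed bin of 50 calls or more it was 2526 bases. For the 93 genes the level summed over their bins was 1.89% to 23.1% in miP1a-OX, with a median of 4.35%, and 63 of them had no bin with more methylated calls than the cytosines of 1 strand. The most bins, 5, were in PSBP-1, a photosystem II subunit gene, with 114 of 2639 methylated calls in miP1a-OX (4.32%, bins from 2.19% to 6.67%) and 0 of 2006 in Col-0.

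In SHM1, the mitochondrial serine hydroxymethyltransferase of photorespiration, all 3 coding bins had more methylated calls than the cytosines of 1 strand, the only gene of the 93 with 3 such bins. Their levels were 6.58% to 9.68%, with 114 of 1360 calls methylated in miP1a-OX and 0 of 834 in Col-0. HD2B, a plant-specific histone deacetylase gene, had 4 bins with 71 of 1700 (4.18%) and 0 of 1317. GAPC2, a glycolytic dehydrogenase gene, had 4 bins with 75 of 1413 (5.31%) and 0 of 1366. CAX1, a vacuolar calcium exchanger gene, had 4 bins with 60 of 1770 (3.39%) and 0 of 1690. The levels in these genes were close to the median of the 93, apart from SHM1 with 8.38%.

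Lists of genes for flowering time, the clock and light signalling, the miP1a complex with its B-box relatives, the methylation machinery and known epialleles were compared with the bins. Of their 113 genes, 106 lie on the arms and 19 (17.9%) held at least 1 bin, in a background of 13.0% of all genes on the arms. The listed genes were longer, with medians per list of 2419 to 5588 bases against 2120. How far length enters the shares was not tested. In all there were 24 bins, 15 of them in coding sequence, with a median level of 3.42% in miP1a-OX. In 1 of the 24 the methylated calls exceeded the cytosines of 1 strand.

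Among the genes of the miP1a complex and B-box family, 5 of 14 on the arms held bins. The bin in COL4, a B-box relative of CONSTANS, had 0 of 211 methylated calls in Col-0 against 42 of 621 in miP1a-OX (6.76%, 4.92% to 9.03%), 1.56 times the cytosines of its richer strand, and was the only bin of the lists past that number. An intron bin of BBX19 had 0 of 260 and 14 of 318 (4.40%). TPL, the TOPLESS corepressor gene, had adjacent coding bins with 0 of 564 and 14 of 374 (3.74%) and with 0 of 487 and 9 of 432 (2.08%). The related corepressor gene TPR4 had 0 of 426 and 10 of 385 (2.60%). In miP1a itself a UTR bin had 0 of 663 and 9 of 440 (2.05%), and whether transgene reads fell there was not tested. All but the COL4 bin were thus within what the cytosines of 1 strand could give.

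In the list for the methylation machinery 4 of 22 genes held 7 bins. A coding bin of MET1 had 0 of 105 methylated calls in Col-0 against 24 of 275 in miP1a-OX (8.73%, 5.67% to 12.7%), the highest level in the lists, and a second one had 0 of 369 and 10 of 309 (3.24%). CMT2 had a coding bin with 0 of 428 and 22 of 343 (6.41%) beside an intron bin with 0 of 336 and 8 of 311 (2.57%). NRPD1, which encodes the largest subunit of RNA polymerase IV, had adjacent UTR bins with 0 of 639 and 18 of 495 (3.64%) and with 0 of 398 and 8 of 262 (3.05%). IBM1, an H3K9 demethylase gene, had a coding bin with 0 of 477 and 12 of 307 (3.91%). In none of the 7 bins did the methylated calls exceed the cytosines of 1 strand. MEE57, a DNA methyltransferase family gene outside the list, had 3 bins with 46 of 1040 calls methylated in miP1a-OX (4.42%), and 1 of them exceeded that number.

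Of the flowering time genes 7 of 42 held 8 bins, with levels of 1.44% to 5.34%. The bin of FLC, the repressor that vernalization silences, lay upstream and had 0 of 287 methylated calls in Col-0 against 8 of 153 in miP1a-OX (5.23%), equal to the 8 cytosines of its richer strand. VRN2, a Polycomb component of vernalization, had 0 of 198 and 24 of 485 (4.95%), again equal to the 24 cytosines of that strand. FPA, an RNA-binding activator of flowering, had bins with 0 of 346 and 7 of 131 (5.34%) and with 0 of 595 and 6 of 416 (1.44%). FY, VRN1, AGL24 and FUL had levels of 3.47%, 3.38%, 1.94% and 1.57%. ZTL was the only gene of 22 in the clock and light list, with 0 of 342 and 5 of 168 (2.98%). SUP and SNC1, both known to form epialleles, had 0 of 186 and 9 of 234 (3.85%) and 0 of 385 and 15 of 474 (3.16%). The shares per list ranged from 4.55% to 35.7%, but each rests on 7 genes or fewer.

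**Figure D4:**
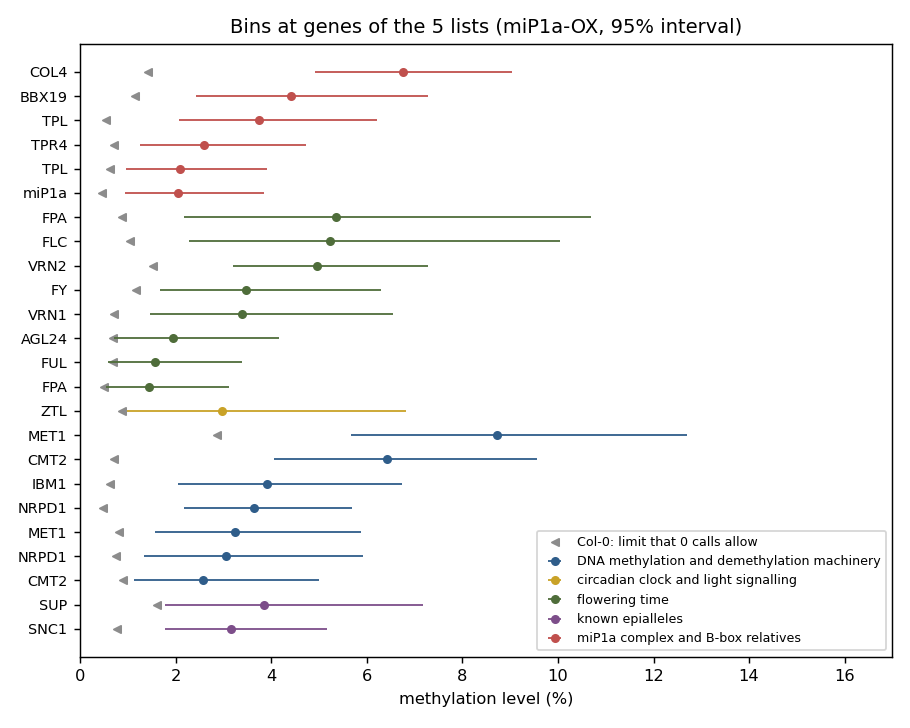
Methylation level (%) in miP1a-OX of the 24 bins at genes of the 5 lists, with 95% Clopper-Pearson intervals for counting error, and the limit that 0 methylated calls allow in Col-0 (grey). MET1 is highest at 8.73%. In 23 of the 24 bins the lower end of the interval lies above the Col-0 limit. The choice of the bins by the same counts largely sets this, so nothing is read from it.

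The condition of 50 calls could be read at its edge. The bin with the fewest calls was that of PDH-E1 BETA, with 50 calls in Col-0 and a miP1a-OX level of 23.6%. Just outside lay a bin upstream of AT3G49040, an F-box gene, with 0 of 46 methylated calls in Col-0 against 18 of 61 in miP1a-OX (29.5%). In all, 30 arm bins had no methylated call in Col-0 and fewer than 50 calls in a library, and their median level was 37.7%. A further 1391 arm bins with enough calls had a single methylated call in Col-0 and a higher level in miP1a-OX, with a median of 4.33%. A bin with few calls enters the table only with a large difference, and where both libraries gave 200 calls or more the median was 3.27%.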

How the data were processed

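The authors converted DNA with bisulfite, mapped reads to TAIR9 with BS-Seeker2 2.1.0 and Bowtie2, computed levels with Methpipe and deposited, without normalization, methylated and unmethylated call counts for each bin. The level in the authors' deposited list of 270 bins is a fraction. The authors' column of Fisher p-values for the comparison and 10 other columns, which repeat the calls and levels, were left out. Recomputed p-values reach 0.01 at most, so bins above that value are not used here. The deposited site counts equal C plus G of TAIR10.1 (RefSeq) in 100% of the nuclear bins of the table, which gave sequence and genes.

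Levels, ratios to the cytosines of the richer strand and 95% Clopper-Pearson intervals were computed with python 3.11.15, scipy 1.17.1, pandas 2.3.3 and numpy 2.4.6, and figures with matplotlib 3.10.9. Close copies were searched with blastn 2.17.0. In the listed arm bins with 50 calls or more there were 11349720 calls from Col-0 and 11585353 from miP1a-OX. Fisher's exact test was tested on simulated data and used for Benjamini-Hochberg adjustment over the 1196690 bins of the reference genome. Arms excluded Chr1 11.5 to 17.7, Chr2 1.1 to 7.2, Chr3 10.3 to 17.3, Chr4 1.5 to 6.3 and Chr5 9.0 to 16.0 Mb.

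The members and lists were chosen with earlier results of these data known. Named were the 15 bins with the highest level, the 5 with the most methylated calls, runs of 3 or more bins, bins at genes of the lists or 1000 bases upstream, genes with 3 or more bins, and the bins at the edge of the call minimum. Of the named runs and genes, some are given only as counts and ranges. Alternatives changed the call minimum, the p threshold, the arm bounds, the number of cytosines, close copies, the calls of 1 fragment and the Col-0 condition.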

Additional observations from a re-analysis of the deposited data

How the results depend on the processing

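No paired analysis was possible because only 1 library was made per genotype, so no library could be left out either. The number of bins was 3672 with at least 20 calls, 3615 with 100, 3165 with 200, 3226 with the excluded blocks widened by 1 Mb, and 5050 with up to 1 methylated call in Col-0. With an adjusted p of at most 0.01, which 36.7% of the listed arm bins reached, it was 1424, and with more methylated calls than the cytosines of 1 strand it was 482. Under these last 2 settings, which keep fewer bins by construction, the median level was 5.19% and 6.37%, the summed level 5.72% and 7.34%, and the share in genes 82.6% and 66.8%. With the adjusted p, 31.4% of the bins had more methylated calls than the cytosines of 1 strand, and with that condition itself 25.3% had a level over their CG share, a measure that bins without a CG site meet by construction. With 200 calls the median level was 3.27%, the summed level 3.76% and the share over the CG share 15.8%. The summed level was 3.93% both with 100 calls and without close copies. With up to 1 methylated call in Col-0, the median level was 3.77%, the summed level 4.19% and the share past 1 strand 16.0%. The other 35 values stayed within the interval for counting error of the main setting or, for numbers of bins, within 1.5 times. Most settings keep largely the same bins, which by itself holds the values close. For shares the interval also takes bins as independent, although adjacent bins share fragments. Nothing is therefore read from these 35 values staying within those limits. The cause was not tested for the shifts other than those set by construction. Depth limits a level of 0 in Col-0 to 0.877% at the median of 342 calls.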

Other observations

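The mitochondrial bins of the table, which stand outside the comparison of chromosome arms, had a summed level of 2.69% in Col-0 and 1.69% in miP1a-OX over 477 bins. Like the 70 chloroplast bins, they were mostly lower in miP1a-OX, with 17.8% and 25.7% of the bins higher there, whereas 58.4% of the listed arm bins were higher in miP1a-OX.

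Calls per bin were similar in both libraries. More calls came from miP1a-OX in 53.9% of the 3659 bins and in 52.2% of all listed arm bins. In the 482 bins with more methylated calls than the cytosines of 1 strand, miP1a-OX had 119% of the Col-0 calls, compared with 103% in the other 3177.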
